A study of Mus musculus with 7 samples.

Results

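The genes of the major histocompatibility complex (MHC) and of antigen presentation were examined in whole-kidney RNA from male mice, Slc7a9-/- and 6 months old. The set was every protein-coding gene whose GENCODE M21 symbol starts with H2-, which gave 34 genes, plus 10 genes chosen by name: B2m, Tap1, Tap2, Tapbp, Psmb8, Psmb9, Psmb10, Cd74, Ciita and Nlrc5. These 44 genes were all present among the 45706 genes of the deposited tables. All 7 mice lacked Slc7a9, a subunit of the transporter that takes cystine back from the forming urine, and served as a model of cystinuria. The 3 untreated mice received no compound (dose 0), and the 4 treated mice received L-ergothioneine, a sulfur-containing antioxidant of the diet, at 16 mg/kg/day in their drinking water. No wild-type kidney was measured, and every value compares treated with untreated mutant kidneys. On the GRCm38 assembly 39 of the 44 genes lie on chromosome 17 between positions 33915899 and 37483552, the mouse MHC. B2m lies on chromosome 2, Ciita on 16, Nlrc5 and Psmb10 on 8, and Cd74 on 18.

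MHC class I molecules show peptides from inside the cell to CD8 T cells on nearly every nucleated cell. They consist of a heavy chain, encoded by H2-K1, H2-D1 and the nonclassical H2-Q, H2-T and H2-M genes, and the light chain beta-2-microglobulin. Peptides are cut by the proteasome, whose catalytic subunits can be exchanged for the inducible Psmb8, Psmb9 and Psmb10, pumped into the endoplasmic reticulum by Tap1 and Tap2, and loaded with the help of tapasin. MHC class II molecules, made mainly by dendritic cells, B cells and macrophages, show peptides from taken-up material and need the invariant chain Cd74 and the exchange factors H2-DM and H2-O. Nlrc5 and Ciita are the transactivators of class I and class II genes, and interferon gamma raises both systems. In the kidney, tubular epithelium can also make these molecules when inflamed.

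Libraries held 14843899 to 19791575 counts. Protein-coding genes made up 80.4% and 76.3% of the deposited TPM (an abundance per transcript length) in untreated libraries 1 and 2, but 46.9% to 58.2% in the other 5, so these 2 libraries stood apart. Slc7a9 itself had 98, 95 and 105 counts in untreated and 119, 166, 162 and 103 in treated kidneys, and the deleted part of the gene is not stated in the labels. The tissue label was matched by its markers: the summed level of 8 proximal tubule markers was 25181 to 27854 CPM (counts scaled to a common library size) in untreated and 25082 to 28513 in treated libraries. Nothing in the labels states litter, cage or batch, so p-values measure the spread between these 7 mice.

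Of the 44 genes, 29 had enough counts to be tested together with all other expressed genes (edgeR quasi-likelihood test, 15399 genes tested). With an adjusted p of 0.05 as the threshold, 6 fell with ergothioneine and 0 rose: the class I heavy chains H2-T23, H2-D1 and H2-Q4, the light chain B2m, the class II beta chain H2-Ab1 and the transactivator Ciita. Over all genes tested, 3.57% were called lower and 3.58% higher. The log2 fold change was negative in 25 of the 29 genes (86.2%, against 50.7% of all genes tested), and its median was -0.24 against 0.00 for all genes. At an unadjusted p under 0.05 there were 14 of the 29, each with a negative value, against 20.8% of all genes tested. DESeq2 called 5 (3.68% of all its genes lower) and limma-voom 3 (3.40%), all among the same 6, and neither called any member higher. All treated libraries were below all untreated ones in 6 genes (20.7%, against 9.11% of all genes tested), namely H2-T23, B2m, H2-D1, H2-Q4, H2-Eb1 and H2-DMb1. In 0 of the 29 were all treated libraries above, against 9.46% of all genes. The 29 are not independent of each other, since they share transactivators, cells and in part sequence. In whole kidney, fewer cells of a type and less RNA per cell cannot be told apart.

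These calls rested on few libraries. Without treated library 4 the count of genes called lower was 13 (background 3.13%), and without any single one of the other libraries it was between 0 and 3. It was 0 without untreated library 3 (background 2.59%), 3 without untreated library 2 (3.20%) and 1 without untreated library 1 (2.44%). It was also 1 without treated library 1 (2.21%), 2 (2.36%) or 3 (3.86%). Against untreated library 3 alone, leaving out the 2 libraries that stood apart, 1 gene was called, H2-T23 (background 1.89%). In that fit the spread came from the 4 treated libraries alone, and the lone untreated one was assumed to vary like them. The median log2 fold change of the members tested was -0.25 there. With the range of the library index numbers as a block (untreated 1 and 2 and treated 1 in the high range, the other 4 in the low range), Ciita and H2-T23 remained called, and B2m (adjusted p = 0.108), H2-D1 (0.0617), H2-Q4 (0.0563) and H2-Ab1 (0.0562) did not. The labels do not call these ranges a batch. The direction of the 6 called genes was negative in each of the 21 alternative fits made for them.

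**Figure D1:**
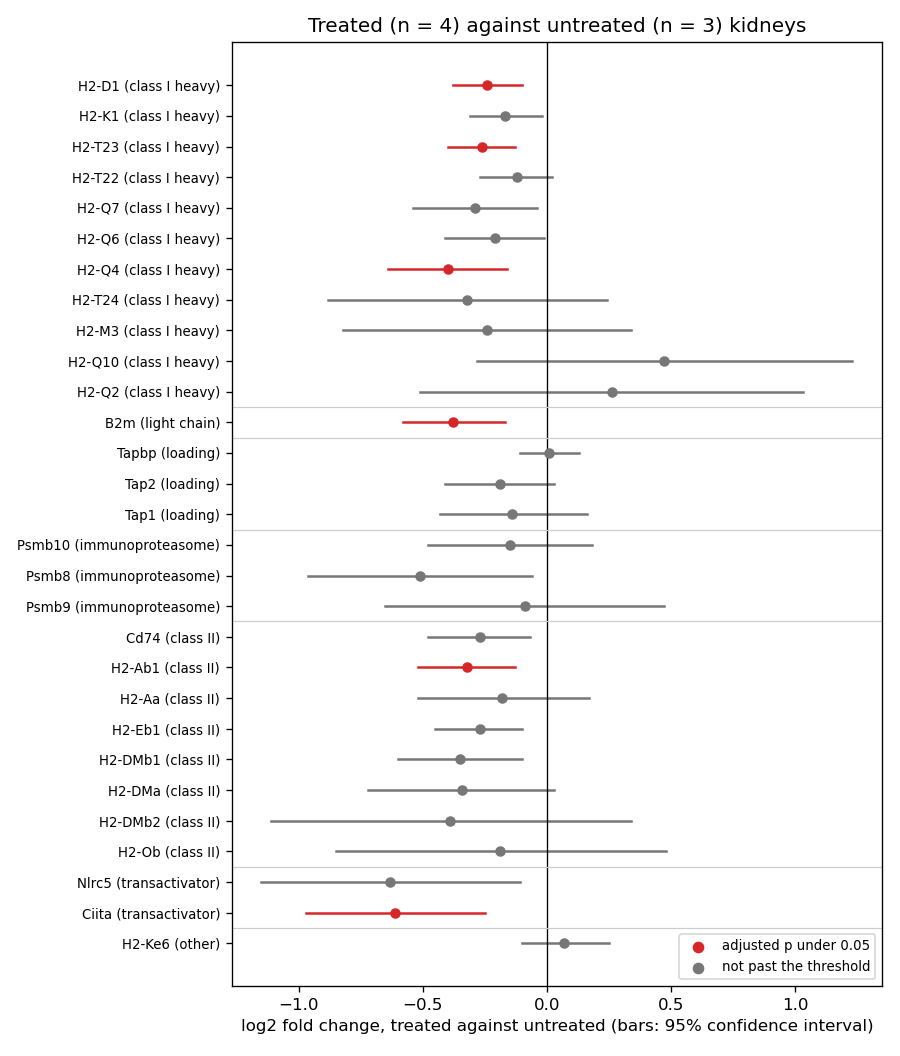
Log2 fold change of treated (n = 4) against untreated (n = 3) kidneys for the 29 tested genes, grouped by role, with 95% confidence intervals from edgeR as bars and genes past the adjusted threshold in red. The points lie left of 0 in 25 of 29 genes, between -0.63 for Nlrc5 and 0.47 for H2-Q10.

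Levels between genes were compared as TPM rescaled over protein-coding genes, which sets aside the non-coding share that differed between libraries. B2m stood highest at 533 ± 7.86 TPM (SD, n = 3) in untreated and 407 ± 55.2 (SD, n = 4) in treated kidneys. Cd74 followed at 290.0 ± 20.8 and 239 ± 42.5. The classical heavy chains H2-K1 and H2-D1 reached 178 ± 18.8 and 174 ± 9.81 TPM in untreated kidneys, a difference within the spread between mice. Next came the class II chains H2-Ab1 (124 ± 13.1) and H2-Aa (113 ± 12.7), then H2-T23 (96.7 ± 10.1), H2-Eb1 (92.7 ± 6.34), H2-Ke6 (90.1 ± 2.83), Tapbp (84.8 ± 6.23) and H2-T22 (69.3 ± 2.01), where most neighbours differed by less than the spread between mice. H2-Aa and H2-T23 differed by more than 1 SD of either, and H2-T22 lay apart from Tapbp. A gap separated these 11 genes from H2-Q7 (27.6 ± 1.25) and H2-Q6 (25.9 ± 1.43). The transactivators were rare transcripts, Nlrc5 at 4.09 ± 0.630 and Ciita at 2.72 ± 0.392 TPM.

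**Figure D2:**
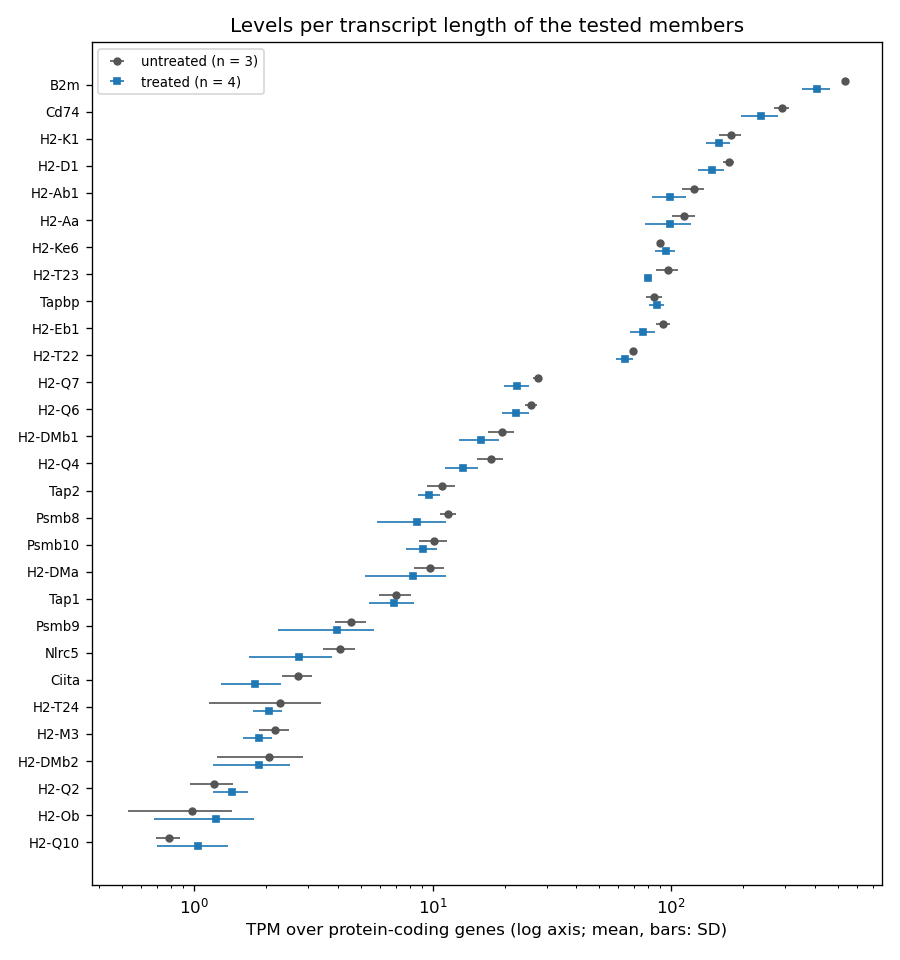
Level of the 29 tested genes as TPM over protein-coding genes on a log axis, mean and SD, for untreated (grey, n = 3) and treated (blue, n = 4) kidneys, ordered by the mean over all libraries. B2m (533 and 407 TPM) stands above Cd74 (290.0 and 239), and H2-Q10 (0.784 and 1.04) is lowest.

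H2-Ke6 entered the set by its symbol alone. It encodes Hsd17b8, a hydroxysteroid dehydrogenase of fatty acid synthesis in mitochondria, which is no MHC molecule. Its level was 34.9, 35.9 and 28.9 CPM in untreated and 32.7, 37.4, 35.9 and 33.6 in treated kidneys. The groups overlapped, and the log2 fold change of 0.07 ± 0.08 (SE) did not pass the test (edgeR, adjusted p = 0.692). Without it, 25 of 28 tested genes were negative, with a median of -0.25.

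Many class I genes carry the same elements shortly before their start, which is why short promoter stretches of 4 heavy chain genes and of B2m are shown. The sequences are from RefSeq on GRCm38.p6, read 5′ to 3′ on each gene's own strand, and lie before the RefSeq start, outside the exons that GENCODE M21 gives for the same gene. Capitals mark the Y box core ATTGG, bound by NF-Y, and a core bound by interferon regulatory factors, which is GAANNGAAA read on the other strand in the heavy chain genes and GAAANNGAA in B2m. H2-K1 is at chr17:34000353-34000443 (minus strand), H2-Q4 at chr17:35379458-35379548, H2-Q6 at chr17:35424692-35424781, H2-Q7 at chr17:35439036-35439125 and B2m at chr2:122147542-122147644 (all 4 on the plus strand).
H2-K1: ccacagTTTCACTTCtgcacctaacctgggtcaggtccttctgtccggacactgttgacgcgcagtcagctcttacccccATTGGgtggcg
H2-Q4: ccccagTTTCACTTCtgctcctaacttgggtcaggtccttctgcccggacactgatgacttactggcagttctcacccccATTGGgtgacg
H2-Q6: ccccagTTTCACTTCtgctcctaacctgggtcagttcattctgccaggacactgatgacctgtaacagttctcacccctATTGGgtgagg
H2-Q7: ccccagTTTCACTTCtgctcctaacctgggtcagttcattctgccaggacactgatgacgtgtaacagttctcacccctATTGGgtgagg
B2m: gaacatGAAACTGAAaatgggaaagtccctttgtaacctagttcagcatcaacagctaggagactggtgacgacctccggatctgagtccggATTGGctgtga

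Windows of 250 bases before to 50 after a start were listed for 37 of the 44 genes, 22 of them class I heavy chains. On either strand ATTGG was found in 19 of these 22 class I windows, against 37.41% of all 32851 windows. GAANNGAAA, searched after GAAANNGAA had been, was found in 8 of the 22 (H2-K1, H2-D1, H2-Q4, H2-Q6, H2-Q7, H2-Q10, H2-M3 and H2-M2), against 7.52% of all windows. GAAANNGAA was found in H2-T23, H2-T22 and B2m, 3 of all 37, against 8.56% of windows. Of the 8 heavy chain genes with GAANNGAAA, H2-D1 and H2-Q4 were called lower, and H2-K1, H2-Q6, H2-Q7 and H2-M3 were negative but not called. H2-Q10 had a positive fold change and H2-M2 had too few counts to be tested. With or without these letters, 3 of the 11 tested heavy chains were called lower, against 3.57% of all genes tested. Whether the letters went with the fold changes was not tested.

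Class I heavy chains numbered 24, of which 11 were tested. Of these, 3 fell, 0 rose and 9 had negative values, with a median log2 fold change of -0.24. H2-T23 encodes Qa-1, which presents leader peptides of other class I molecules to inhibitory receptors of natural killer cells. It stood at 66.8, 69.0 and 73.6 CPM in untreated and 60.9, 53.4, 59.1 and 59.1 in treated kidneys. All 4 treated values were below the lowest untreated one, and the log2 fold change was -0.26 ± 0.06 (SE, edgeR, adjusted p = 0.0186).

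H2-D1, a classical heavy chain, was measured at 173, 175 and 171 CPM in untreated and 139, 133, 149 and 166 CPM in treated kidneys. The untreated mice lay close together, and treated mouse 4 was the nearest to them. The fold change was -0.24 ± 0.07 (adjusted p = 0.0417). H2-K1, the other classical heavy chain of this annotation, had 126, 140.4 and 142 CPM in untreated and 116, 115, 118 and 136 in treated kidneys. Here treated mouse 4 lay inside the untreated range, and -0.17 ± 0.07 did not pass the test (adjusted p = 0.163, 95% confidence interval -0.31 to -0.02). Summed, H2-K1 and H2-D1 gave 299.5, 316 and 313 CPM against 255, 248, 268 and 302.

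H2-Q4, a nonclassical gene of the Qa region, had 18.0, 16.2 and 19.2 CPM in untreated and 13.5, 11.4, 12.9 and 16.2 in treated kidneys. Its groups met at their edges, with treated mouse 4 just under untreated mouse 2, and the log2 fold change was -0.40 ± 0.12 (adjusted p = 0.0440). H2-Q6 and H2-Q7 encode Qa-2 and share 100-base stretches, so their counts were also summed. The sum was 55.5, 56.2 and 56.5 CPM in untreated and 47.1, 41.0, 43.9 and 56.6 in treated kidneys, with treated mouse 4 above all untreated mice and the other 3 below. Singly, H2-Q7 had a log2 fold change of -0.29 ± 0.12 (adjusted p = 0.172) and H2-Q6 of -0.21 ± 0.10 (adjusted p = 0.209). H2-T22, whose product is recognised by gamma delta T cells, had 63.2, 62.7 and 55.9 CPM against 52.7, 52.8, 58.6 and 58.9. Its groups overlapped, and -0.12 ± 0.07 did not pass the test (adjusted p = 0.348).

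The other 4 tested heavy chains were at most at 3.21 CPM in a library (H2-T24). H2-T24 (-0.32 ± 0.27) and H2-M3 (-0.24 ± 0.27), which presents formylated bacterial peptides, had negative values. H2-Q10, which is known as a secreted heavy chain of liver, had 0.623, 0.871 and 0.834 CPM in untreated and 1.42, 1.16, 1.11 and 0.600 in treated kidneys. Its log2 fold change was 0.47 ± 0.36, and H2-Q2 had 0.26 ± 0.36. None of these passed the test, and their confidence intervals were wide, from -0.28 to 1.23 for H2-Q10.

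B2m, the light chain shared by all class I molecules, fell. It had 182, 185 and 171 CPM in untreated and 142, 111, 145 and 155 CPM in treated kidneys. No treated value reached the lowest untreated one, and treated mouse 2 was the lowest of all. The log2 fold change was -0.38 ± 0.09 (edgeR, adjusted p = 0.0332). The summed heavy chains went from 508, 525 and 524 CPM to 435, 411, 448 and 498, and among the treated mice both the light chain and this sum were lowest in mouse 2 and highest in mouse 4.

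None of the 3 peptide loading genes passed the test, and 0 of 3 had an unadjusted p under 0.05. Tapbp (tapasin), which holds empty class I molecules at the peptide pump, had 88.9, 87.6 and 87.2 CPM in untreated and 85.4, 89.3, 84.5 and 95.0 in treated kidneys. The log2 fold change of 0.01 ± 0.06 had a 95% interval of -0.11 to 0.13 (adjusted p = 0.948). The pump subunits Tap1 and Tap2 had -0.14 ± 0.14 (adjusted p = 0.653) and -0.19 ± 0.10 (adjusted p = 0.324). Tap1 was measured at 10.3, 11.2 and 12.6 CPM against 9.43, 9.56, 9.0 and 13.4, so treated mouse 4 was the highest of all 7 and the other 3 treated mice were the lowest. Tap2 was at 15.4, 17.2 and 17.7 CPM against 15.8, 12.6, 14.7 and 15.6.

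The 3 inducible proteasome subunits were all at low levels, and 0 of 3 passed the test, with 1 at an unadjusted p under 0.05. Psmb8 had 4.87, 6.63 and 4.17 CPM in untreated and 3.58, 2.73, 3.33 and 5.02 in treated kidneys, with overlapping groups and a log2 fold change of -0.51 ± 0.21 (adjusted p = 0.178). Psmb9 (-0.09 ± 0.26) and Psmb10 (-0.15 ± 0.16) lay nearer to 0. Against the constitutive subunit that each replaces, the levels per length were small. Psmb8 was 6.79% ± 0.960 (SD, n = 3) of Psmb5 in untreated and 4.43% ± 1.37 (SD, n = 4) in treated kidneys, Psmb9 was 2.25% ± 0.533 and 1.73% ± 0.665 of Psmb6, and Psmb10 was 9.93% ± 1.26 and 7.91% ± 1.04 of Psmb7. The constitutive partners were themselves higher in every treated than in every untreated library by CPM, as were 9.46% of all genes tested. Their log2 fold changes were 0.20 ± 0.07 for Psmb5, 0.16 ± 0.06 for Psmb6 and 0.14 ± 0.06 for Psmb7. None of them passed the test (edgeR, adjusted p = 0.0895, 0.140 and 0.215). The lower shares also hold this difference. By library these shares ran from 1.13% to 11.0%, so the standard proteasome transcripts outnumbered the inducible ones in every kidney.

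Class II genes share another arrangement before their start, an X box bound by the RFX complex followed by the Y box, and the stretches below let it be read. They are from RefSeq on GRCm38.p6, 5′ to 3′ on the gene's strand, with capitals for the X core AGNAAC and the Y core ATTGG. H2-Eb1 is at chr17:34305769-34305818 (plus strand), H2-Eb2 at chr17:34325536-34325585 (plus), H2-Ob at chr17:34238811-34238858 (plus), H2-Aa at chr17:34287861-34287910 (minus) and H2-DMb2 at chr17:34145120-34145169 (plus, inside an intron of a longer H2-DMb2 model in GENCODE M21). The last 2 are shown because they hold the Y core without the letters AGNAAC at the matching place.
H2-Eb1: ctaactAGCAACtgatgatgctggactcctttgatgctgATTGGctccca
H2-Eb2: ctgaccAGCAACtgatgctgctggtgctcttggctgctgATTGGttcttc
H2-Ob: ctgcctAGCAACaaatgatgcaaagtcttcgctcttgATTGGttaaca
H2-Aa: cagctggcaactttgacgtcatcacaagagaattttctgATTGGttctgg
H2-DMb2: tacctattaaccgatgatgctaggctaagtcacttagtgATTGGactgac

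AGNAAC followed by ATTGG after 15 to 45 bases was found in 5 of the 8 class II windows (H2-Eb1, H2-Eb2, H2-DMb1, H2-Oa and H2-Ob), against 1.62% of all windows on either strand. The spacing was 25 to 28 bases. ATTGG alone was in 8 of 8, and AGNAAC alone, which is short, in 6 of 8 against 48.05% of all windows. Of the other strings, GAAANNGAA was in 0 of 8, against 8.56% of all windows. TTCNNNGAA, the interferon gamma activated site, was in 1 of 8 (H2-DMb2), against 8.3% of all windows.

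The 10 class II genes comprise the antigen-binding chains H2-Aa, H2-Ab1, H2-Eb1 and H2-Eb2, the exchange factors and the invariant chain. Of these, 8 were tested, all 8 had negative values with a median of -0.30, and 1 passed the test. H2-Ab1, the beta chain of I-A, had 60.4, 68.6 and 65.9 CPM in untreated and 48.1, 46.9, 50.1 and 62.2 in treated kidneys. Treated mouse 4 was above untreated mouse 1, so the groups overlapped, and the log2 fold change was -0.32 ± 0.09 (edgeR, adjusted p = 0.0440). Its partner H2-Aa had 50.8, 58.4 and 58.0 CPM against 46.0, 39.3, 49.5 and 62.5. There treated mouse 4 was the highest of all 7 libraries, and -0.18 ± 0.15 did not pass the test (adjusted p = 0.589).

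H2-Eb1, the beta chain of I-E, had 47.0, 50.7 and 49.2 CPM in untreated and 40.3, 34.2, 42.6 and 45.1 in treated kidneys. All treated values were below the untreated ones, with a log2 fold change of -0.27 ± 0.08 just outside the threshold (adjusted p = 0.0564). The I-E alpha chain is annotated as the pseudogene H2-Ea-ps, and it had 0 counts in all 7 libraries, a count that allows up to 0.152 to 0.202 CPM by library (3 counts, counting error only). Cd74, the invariant chain that guards the peptide groove, had 164, 168 and 169 CPM in untreated and 124, 123, 138 and 167 in treated kidneys. Treated mice 1 to 3 were well below and treated mouse 4 was inside the untreated range, giving -0.27 ± 0.09 (adjusted p = 0.111).

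The exchange factor H2-DM, which swaps the invariant chain fragment for peptide, has the subunits H2-DMa, H2-DMb1 and H2-DMb2. H2-DMb1 had 11.9, 12.3 and 13.7 CPM in untreated and 8.91, 9.92, 9.23 and 11.7 in treated kidneys. The groups did not overlap, but -0.35 ± 0.12 missed the threshold (adjusted p = 0.0892). H2-DMb1 and H2-DMb2 share 11.34% and 10.28% of their 100-base stretches. Their sum was 13.5, 13.1 and 15.2 CPM against 9.77, 10.7, 10.1 and 13.1. H2-DMa (-0.34 ± 0.18, adjusted p = 0.289) and H2-Ob, a subunit of the H2-DM inhibitor H2-O (-0.19 ± 0.32), did not pass the test.

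The summed class II genes were at 343, 366 and 364 CPM in untreated and 273, 259, 297 and 358 in treated kidneys. The class I heavy chain sum, in contrast, was below all untreated values in all 4 treated mice.

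The transactivators had the most negative log2 fold changes of the 29 genes. Ciita, the master regulator of class II, had 8.61, 7.10 and 8.27 CPM in untreated and 4.37, 4.60, 4.79 and 7.20 in treated kidneys. Treated mice 1 to 3 were below all untreated mice and treated mouse 4 was above untreated mouse 2, and the log2 fold change was -0.61 ± 0.17 (edgeR, adjusted p = 0.0375). Nlrc5, which acts on class I genes, B2m, Tap1 and Psmb9, had 7.59, 10.5 and 8.14 CPM in untreated and 4.09, 4.40, 5.55 and 8.51 in treated kidneys. With treated mouse 4 inside the untreated range, -0.63 ± 0.24 did not pass the test (adjusted p = 0.152). Whether these fold changes differ from those of the other genes was not tested.

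**Figure D3:**
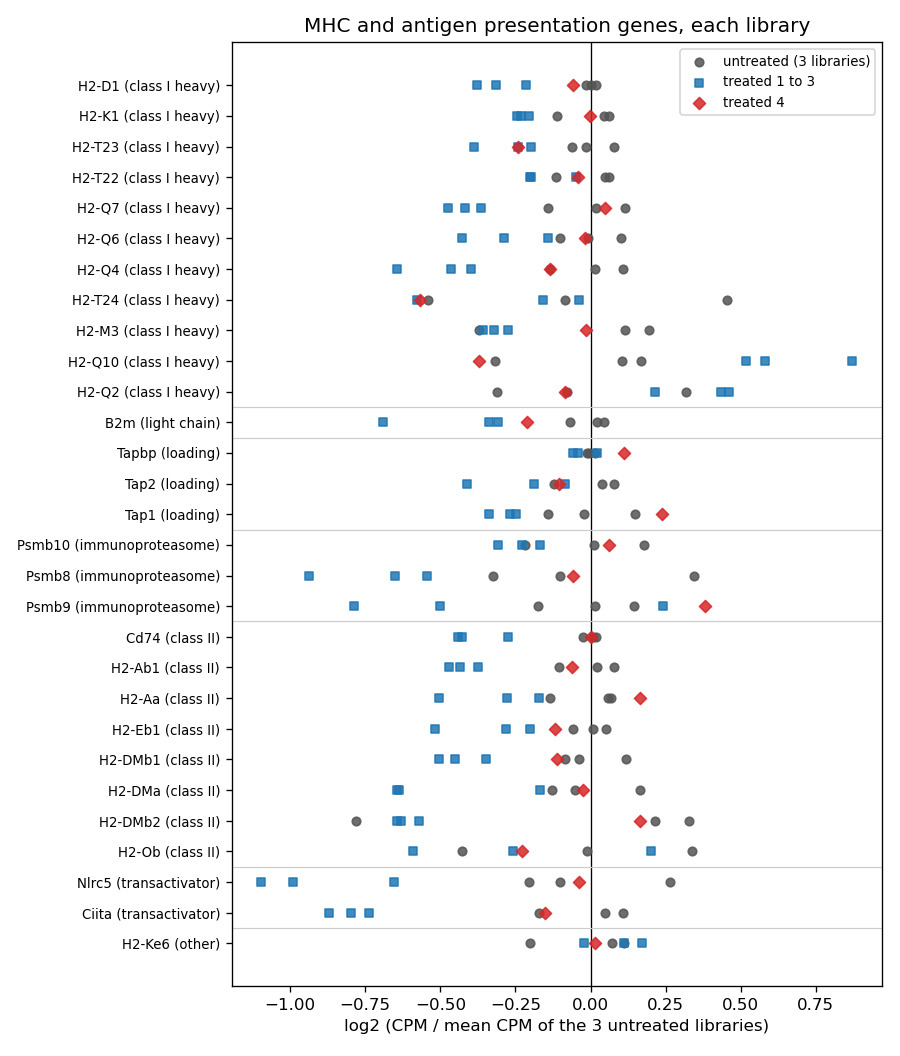
Log2 ratio of each library's CPM to the mean CPM of the 3 untreated libraries for the 29 tested genes, with untreated libraries as grey circles, treated libraries 1 to 3 as blue squares and treated library 4 as red diamonds. Treated libraries 1 to 3 lie left of the untreated ones in most rows, while treated library 4 was the highest treated library in 22 of 29 genes.

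Treated mouse 4 lay nearer to the untreated mice than the other 3 in most of the genes, though not in H2-T23, where it equalled treated mouse 3. It was the highest of the treated libraries in 22 of 29 genes (75.9%, against 26.2% of all genes tested) and was below every untreated library in 8 of 29 (27.6%, against 28.7% of all genes tested). Treated mice 1, 2 and 3 were below every untreated library in 21, 22 and 20 of 29 (72.4%, 75.9% and 69.0%, against 27.7%, 27.6% and 26.4% of all genes tested). The median log2 ratio to the untreated mean was -0.04 in treated mouse 4 and -0.28, -0.44 and -0.24 in treated mice 1, 2 and 3, against -0.01 to 0.00 over all genes tested. Without this library the 13 genes called lower were the 6 named before plus H2-K1, H2-Q7, H2-Aa, H2-Eb1, H2-DMb1, Cd74 and Nlrc5. The log2 fold change was then -0.80 ± 0.15 for Ciita (adjusted p = 0.00376), -0.90 ± 0.17 for Nlrc5 (0.00383), -0.38 ± 0.06 for Cd74 (0.00124), -0.42 ± 0.07 for H2-Ab1 (0.00149) and -0.44 ± 0.09 for B2m (0.0104). The labels give treated mouse 4 the same dose, sex and age as the others, and leaving it out is a description of these 7 libraries, not a better estimate.

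The 15 genes not tested had at most 11 counts in any library. H2-T3, H2-M1, H2-M11 and H2-M10.1, H2-M10.2, H2-M10.3, H2-M10.4 and H2-M10.6, 8 genes in all, had 0 counts in every library. The H2-M10 genes are known for expression in the vomeronasal organ. The other 7 (H2-Oa, H2-Eb2, H2-Q1, H2-M2, H2-M5, H2-M9 and H2-M10.5) had a few counts each, and H2-Oa was at most at 0.340 CPM. Among H2- symbols not annotated as protein coding, H2-Q5 had 23 to 41 counts, H2-T10 9 to 22 and H2-K2 5 to 15.

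Reads of some class I genes cannot be assigned with certainty. Of all 100-base stretches in the annotated transcripts, the share found also in another gene was 11.98% for H2-Q7, 10.78% for H2-Q6, 8.86% for H2-T22, 8.01% for H2-Q10, 3.59% for H2-D1, 3.15% for H2-T23, 2.16% for H2-Q4 and 0.96% for H2-K1. It was 0.0% for B2m, H2-Ab1, H2-Aa, H2-Eb1, Cd74, Ciita and Nlrc5, and 61.57% for H2-Ke6, by overlap with the readthrough transcript Gm20427. Exons of H2-Q4 overlap the antisense gene Gm11131 over 19.1% of their bases, those of H2-T22 overlap A930015D03Rik over 29.4%, and those of Psmb9 and Tap1 share 212 bases on opposite strands. The strand setting of the counting was not given in the sources used here, so these counts may be mixed.

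Beyond the set, 9 genes of the companion lists were called lower and 0 higher by edgeR, and DESeq2 also called 0 higher. Over all genes tested, edgeR called 3.57% lower and 3.58% higher, and the number tested is given list by list. Of the 10 tested genes of class I loading and quality control, such as the chaperones Calr and Canx, 0 were called and 3 had an unadjusted p under 0.05 (median -0.04), where 20.8% of all genes tested did. Of the 6 constitutive proteasome and PA28 genes 0 were called and 3 had an unadjusted p under 0.05 (median 0.10). Of 12 genes of class II processing, 1 fell: March1, the ubiquitin ligase that removes class II from the surface, at -0.58 ± 0.13 (adjusted p = 0.0121). Of 15 transcription factors and coactivators of MHC genes, 2 fell, the acetyltransferase Ep300 (-0.29 ± 0.06, adjusted p = 0.00485) and the NF-Y subunit Nfya, which binds the ATTGG box (-0.30 ± 0.08, adjusted p = 0.0333), with a list median of 0.00. The interferon gamma receptor pathway, with Ifngr1, Jak1, Jak2 and Irf1, had 0 of 10 called, 0 of 10 with an unadjusted p under 0.05 and a median of -0.01.

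Interferon-inducible genes had mostly negative values, and few passed the test. Over all genes tested, 50.7% had negative values and 3.57% were called lower. These lists were chosen with earlier results of these data known, so their counts describe the data and are no independent support. All 18 tested interferon-inducible GTPases and chemokines had negative values, with a median of -0.47, and 2 fell: Cxcl10, a chemokine for T cells (-1.06 ± 0.25, adjusted p = 0.0172), and the guanylate-binding protein gene Gbp7 (-0.38 ± 0.11, adjusted p = 0.0489). Their summed level was 281, 296 and 248 CPM in untreated and 199, 159, 205 and 277 in treated kidneys, so again treated mouse 4 was inside the untreated range. Of 28 genes of the type I interferon response, 26 were negative, with a median of -0.34, and 4 fell: Oas2 (-1.38 ± 0.33), Ifit1 (-0.91 ± 0.23), Herc6 (-0.51 ± 0.13) and Parp14 (-0.40 ± 0.10), with adjusted p from 0.0165 to 0.0301. That sum was 302, 357 and 345 CPM against 285, 249, 297 and 296, all 4 treated mice being below. MHC-like proteins outside the complex, such as Fcgrt and Mr1, had 0 of 6 called, and costimulation and checkpoint genes 0 of 7.

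Markers of antigen-presenting cells were read beside these values. For scale, 3.57% of all genes tested were called lower, 3.58% were called higher and 50.7% had negative values. The 8 general leukocyte markers were all negative, with a median of -0.26, and 1 fell, Ptprc (CD45, -0.53 ± 0.11, adjusted p = 0.00551). They summed to 52.7 to 65.5 CPM in untreated and to 41.0, 39.8, 48.0 and 53.9 in treated mice 1 to 4. The class II sum had the same order among the 4 treated mice. So did the sums of class I heavy chains, inducible proteasome subunits, interferon-inducible GTPases and chemokines, and macrophage markers, so this order is not particular to leukocyte markers. Macrophage markers summed to 208 to 217 and 194 to 208 CPM, with 1 of 13 called, Mertk (-0.25 ± 0.06, edgeR, adjusted p = 0.0124), while 4 of the 13 were positive. All treated libraries were below all untreated ones in 2 of the 13, Mertk and Mrc1 (-0.50 ± 0.19, adjusted p = 0.128), against 9.11% of all genes tested. They were all above in 1, Csf1r (0.12 ± 0.06, adjusted p = 0.285), against 9.46%. Mertk and Csf1r made the largest parts of the sum and went in opposite directions. Dendritic cell markers summed to 23.7 to 27.1 and 24.3 to 30.3 CPM, with 0 of 6 called, and treated mouse 4 was the highest. Zbtb46 made the largest part of this sum, at 15.6 to 17.4 CPM in untreated and 15.3 to 19.5 in treated kidneys. It was the 1 positive marker (0.10 ± 0.10). The other 5 were negative, down to -0.58 ± 0.29 for Clec9a, with a list median of -0.09. B cell markers gave 4.59 to 5.51 and 4.50 to 7.09 CPM, T cell markers 4.62 to 6.03 and 3.86 to 4.91, and NK cell markers 1.25 to 1.67 and 1.23 to 1.42. Neutrophil markers were at most at 0.709 CPM, with Camp at 0. Endothelial markers, whose cells carry much class I, summed to 674 to 759 and 685 to 736 CPM, with 0 of 10 called. Their part in the differences of MHC genes was not tested.

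**Figure D4:**
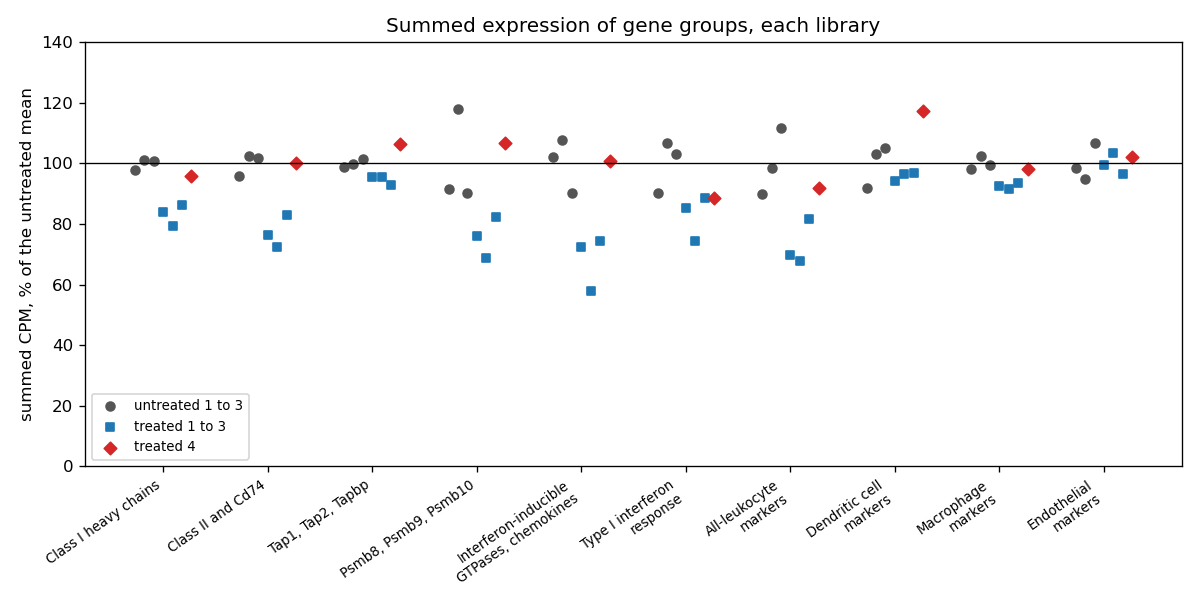
Summed CPM of gene groups in each library as a percentage of the mean of the 3 untreated libraries, with untreated libraries in grey, treated libraries 1 to 3 in blue and treated library 4 in red. Class I heavy chains (435, 411 and 448 CPM in treated libraries 1 to 3) and class II genes (273, 259 and 297) lie below the untreated libraries, as do leukocyte markers, whereas endothelial markers overlap.

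Plasma cell and fat markers also moved with the groups. Plasma cell markers summed to 80.1, 119 and 47.4 CPM in untreated and 26.5, 12.5, 21.2 and 12.8 in treated kidneys, and Jchain fell (-1.52 ± 0.27, adjusted p = 0.00626). All 6 tested adipocyte markers fell, where 3.57% of all genes tested were called lower. Their sum was 52.4 to 64.0 CPM in untreated and 12.0 to 20.2 in treated kidneys. Treated mouse 4 was at 17.9, among the other treated mice. Of the 6 distal nephron markers 1 rose, Slc12a1 (0.34 ± 0.08, edgeR, adjusted p = 0.0130), where 3.58% of all genes tested were called higher. The part of fat, plasma cells or the share of nephron segments in the MHC values was not tested.

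The neighbours of the MHC genes were read to see whether the region as a whole was lower. In the interval of chromosome 17 from 33915899 to 37483552 there are 142 protein-coding genes outside the set, of which 81 were tested. Of these, 4 fell and 1 rose, where 3.57% of all genes tested were called lower and 3.58% higher. The median log2 fold change was -0.02, against -0.24 for the set. All treated libraries were below all untreated ones in 11 of the 81 (13.6%, against 9.11% of all genes tested). They were all above in 5 of the 81, against 9.46% of all genes tested. The 4 called lower were Ppt2, a lysosomal thioesterase (-0.29 ± 0.06), the complement gene C4b (-0.48 ± 0.13), Stk19 (-0.45 ± 0.13) and the matrix gene Tnxb (-0.36 ± 0.10). The lysosomal sialidase Neu1 rose from 340.1, 332 and 323 CPM to 439.9, 424, 422 and 416 (0.36 ± 0.06, adjusted p = 5.90e-04). The difference between the set and its neighbours was not tested.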

How the data were processed

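Kidney RNA of 7 mice was sequenced from stranded, ribosomal RNA-depleted libraries, per the labels' protocols. The authors deposited expected counts, of which 3.61% were not whole, and TPM for 45706 Ensembl genes. Tools named in the submitters' processing notes include Trim Galore 0.6.7, STAR 2.7.10a, RSEM 1.3.1, Salmon 1.10.1 and DESeq2, with no role or setting, and the build GRCm38. The strand setting was not given in the sources used here. Of the gene identifiers, 45143 matched GENCODE M21.

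Rounded counts entered edgeR 4.0.16 (R 4.3.3). Low genes were removed by filterByExpr, libraries were scaled by TMM, and 3 untreated were compared with 4 treated libraries by the quasi-likelihood F test with robust shrinkage. Adjustment was by Benjamini-Hochberg over 15399 genes, with a threshold of 0.05. The SE of a log2 fold change was that value over the root of its F. CPM use TMM library sizes. The procedure was run on simulated counts with planted changes larger than those of any tested member. That run does not cover changes as small as those of the members. A chi-square test between libraries of 1 group gave 7.96 to 27.5 per degree of freedom, so none was a copy of another in its group. Limits from 0 counts cover counting error only, and confidence intervals of fold changes come from the edgeR fit.

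The genes and companion lists were chosen with earlier results of these data known. Genes named with values were those past the threshold, those with a mean of at least 10 CPM and, of other lists, those past the threshold. H2-Ea-ps, the members under 10 CPM and other genes outside this rule were named after their values were seen. Alternatives were DESeq2 1.42.0, limma 3.58.1 (voom, and trend on log2 TPM), other scalings, filters and thresholds, blocks, and each library left out. Motifs were searched on both strands of RefSeq promoter windows, and the letters GAANNGAAA were added after the first search. Protein sequences were not used here. Some genes of the companion and marker lists are not reported here.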

Additional observations from a re-analysis of the deposited data

Results flagged for a closer look

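In 7 of 60 groups of 4 treated libraries examined, 1 library stood far from the other 3 relative to the whole range (Dixon's criterion, which chance meets in about 1 of 20 groups). In 6 of the 7 it was treated mouse 4. Ciita was at 7.20 CPM there, against 4.37 to 4.79 in treated mice 1 to 3. Tap1 was at 13.4 CPM, against 9.0 to 9.56, and H2-DMb2 was at 1.42 CPM, against 0.810 to 0.852. Markers of dendritic cells summed to 30.3 CPM in this mouse, against 24.3 to 25.0, and B cell markers to 7.09 CPM, against 4.50 to 4.85. Only 3 of the 9 B cell markers, Cr2, Cd79b and Cd79a, had enough counts to be tested. None of these was highest in treated mouse 4 among the treated mice, so its higher sum came from markers too low to be tested. Genes of class II processing, mostly lysosomal proteases and membrane proteins, summed to 3735 CPM there, below the 3997 to 4023 of the other treated mice. The seventh was treated mouse 3, whose proximal tubule markers summed to 28513 CPM, against 25082 to 25650 in the other treated mice.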

How the results depend on the processing

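All 6 called genes kept a negative direction in the 21 alternatives, but the count of members called lower (6) moved. It was 3 by limma-voom, 2 with the index range of the library labels as a block (Ciita and H2-T23), 2 without robust shrinkage, 2 on log2(TPM + 1), 0 on log2(TPM + 0.1) and on TPM over protein-coding genes, 0 at a threshold of 0.01, and 1 without both untreated libraries 1 and 2. With single libraries left out it ran from 0 to 13. On the deposited TPM the median of all genes was -0.31 (pseudocount 1) or -0.37 (0.1), and that of the members was -0.55 or -0.58, so members lay below all genes there too. Counts over all genes (552 higher, 550 lower) were 249 and 307 without both untreated libraries, 873 and 868 at a threshold of 0.1, and 242 and 239 at 0.01. They were 83 and 114 on TPM over protein-coding genes. Higher calls were 19 and 18 on the deposited TPM with pseudocounts 1 and 0.1, and with single libraries left out the range was 350 to 514 higher and 337 to 589 lower.

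Companion genes called lower (9) were 4 without both untreated libraries, 0 on TPM over protein-coding genes, 1 at 0.01 and 3 to 15 with single libraries left out. Higher calls there were 2 at a threshold of 0.1. In the chromosome 17 interval, higher calls (1) were 2 with upper-quartile scaling, with no filter on low counts and with the stricter filter, 3 at 0.1, 0 on the deposited TPM, and 1 to 2 with single libraries left out. Lower calls (4) were 2 on TPM over protein-coding genes, 8 at 0.1, 1 at 0.01 and 1 to 6 with single libraries left out. The cause of these moves was not tested, and the fits without libraries also hold fewer samples.

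Same-numbered libraries of the 2 groups did not deviate together (correlations 0.027, -0.068 and 0.003), so the numbers were not taken as pairs. With the replicate number as a block, 9 members were called lower, 5 of them among the 6 (not H2-T23, adjusted p = 0.0544), and the interval had 2 lower calls. Tapbp was then -0.03.

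Members with fold changes near 0 or few counts changed sign in places. Tapbp was 0.00 with the index block, -0.02 (without treated library 4) to 0.03 with single libraries left out, and -0.32 and -0.33 on deposited TPM. H2-Ke6 was -0.02 (without untreated library 3) to 0.13 with single libraries left out and -0.30 on deposited TPM with either pseudocount. H2-Q2 was -0.07 and -0.11 and H2-Q10 -0.01 (pseudocount 0.1) on deposited TPM. H2-Ob was -0.37 to 0.02 (without untreated library 3) with single libraries left out, 0.01 on log2(TPM + 1) and 0.17 over protein-coding genes. H2-M3 was 0.13 without both untreated libraries. Psmb9 was 0.09 without both untreated libraries, and -0.29 to 0.09 with single libraries left out (0.02 without treated library 1, 0.09 without treated library 2).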
